A study of Mus musculus with 12 samples.

Results

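The genes examined here are 40 apoptosis and p53 family genes of the mouse: the BCL2 proteins that open or guard the outer mitochondrial membrane, the apoptosome, the inhibitor of apoptosis proteins, caspases, death receptors with their adaptors, and *Trp53* with its relatives and its inhibitor *Mdm2*. They were chosen by name, with earlier results of these data known, and all 40 were found among the 55385 genes of the expression table. Bulk RNA-seq had been performed on spermatogonia sorted from mouse testis, in 6 groups of 2 libraries each. Undifferentiated spermatogonia (Aundiff, which include the stem cells) and early differentiating spermatogonia (Adiff) came from untreated wild-type (WT) C57BL/6 adults. The other 4 groups were Aundiff of mice on a mixed background of C57BL/6 and FVB/NJ, labelled PRC1ctrl (*Ring1*-/-; *Rnf2* F/+; *Ddx4*-Cre) or PRC1cKO (*Ring1*-/-; *Rnf2* F/-; *Ddx4*-Cre). All PRC1 mice thus lacked *Ring1*, and the controls also carried the Cre, which *Ddx4* drives in germ cells only. RNF2 and RING1 are the catalytic subunits of Polycomb repressive complex 1 (PRC1), which places ubiquitin on histone H2A. Of these groups, 1 pair was untreated and taken at 2 mo. The other pair had received Win18446, a drug that blocks retinoic acid synthesis and thereby spermatogonial differentiation, from 1 month of age in about 30 daily injections, and was taken 24 h after the last. Each library was made from pooled cells.

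Apoptosis can start from within the cell or at its surface. In the intrinsic route, BH3-only proteins sense stress and free or activate the effectors BAX and BAK, unless anti-apoptotic relatives such as BCL-XL and MCL1 hold them back. BOK is a related effector that is known to depend less on these partners. Cytochrome c then leaves the mitochondria and assembles with APAF1 and caspase 9 into the apoptosome. In the extrinsic route, receptors such as FAS recruit FADD and caspase 8. The transcription factor p53 induces several BH3-only genes, *Bax* and its own inhibitor *Mdm2*. In the testis, apoptosis removes a part of the differentiating spermatogonia in every normal cycle, and loss of *Bax* is known to leave too many spermatogonia.

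Values were TPM, a share of each library corrected for transcript length. TPM keeps neither the number of reads nor the counting error, so the depth behind a value is unknown and only the 2 libraries of a group give its error. Of the 40 genes, 22 had a TPM of at least 1 in all 12 libraries. *Bak1* and *Bcl2*, a BAX-type effector and the founding anti-apoptotic member of the family, stayed under a TPM of 1 in each library. *Bak1* reached at most 0.93 and *Bcl2* at most 0.31. *Trp63* and *Trp73*, the relatives of *Trp53*, reached 1.10 and 1.11 in a single library each. *Casp1* and *Casp12*, caspases of the inflammatory family, reached 1.61 and 1.3, each in a PRC1cKO library at 2 mo. *Bax* was the most abundant effector transcript, between 50.2 and 322 TPM, and in the WT and Win18446 libraries *Bcl2l1* (which encodes BCL-XL) and *Mcl1* were the most abundant anti-apoptotic ones.

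**Figure D1:**
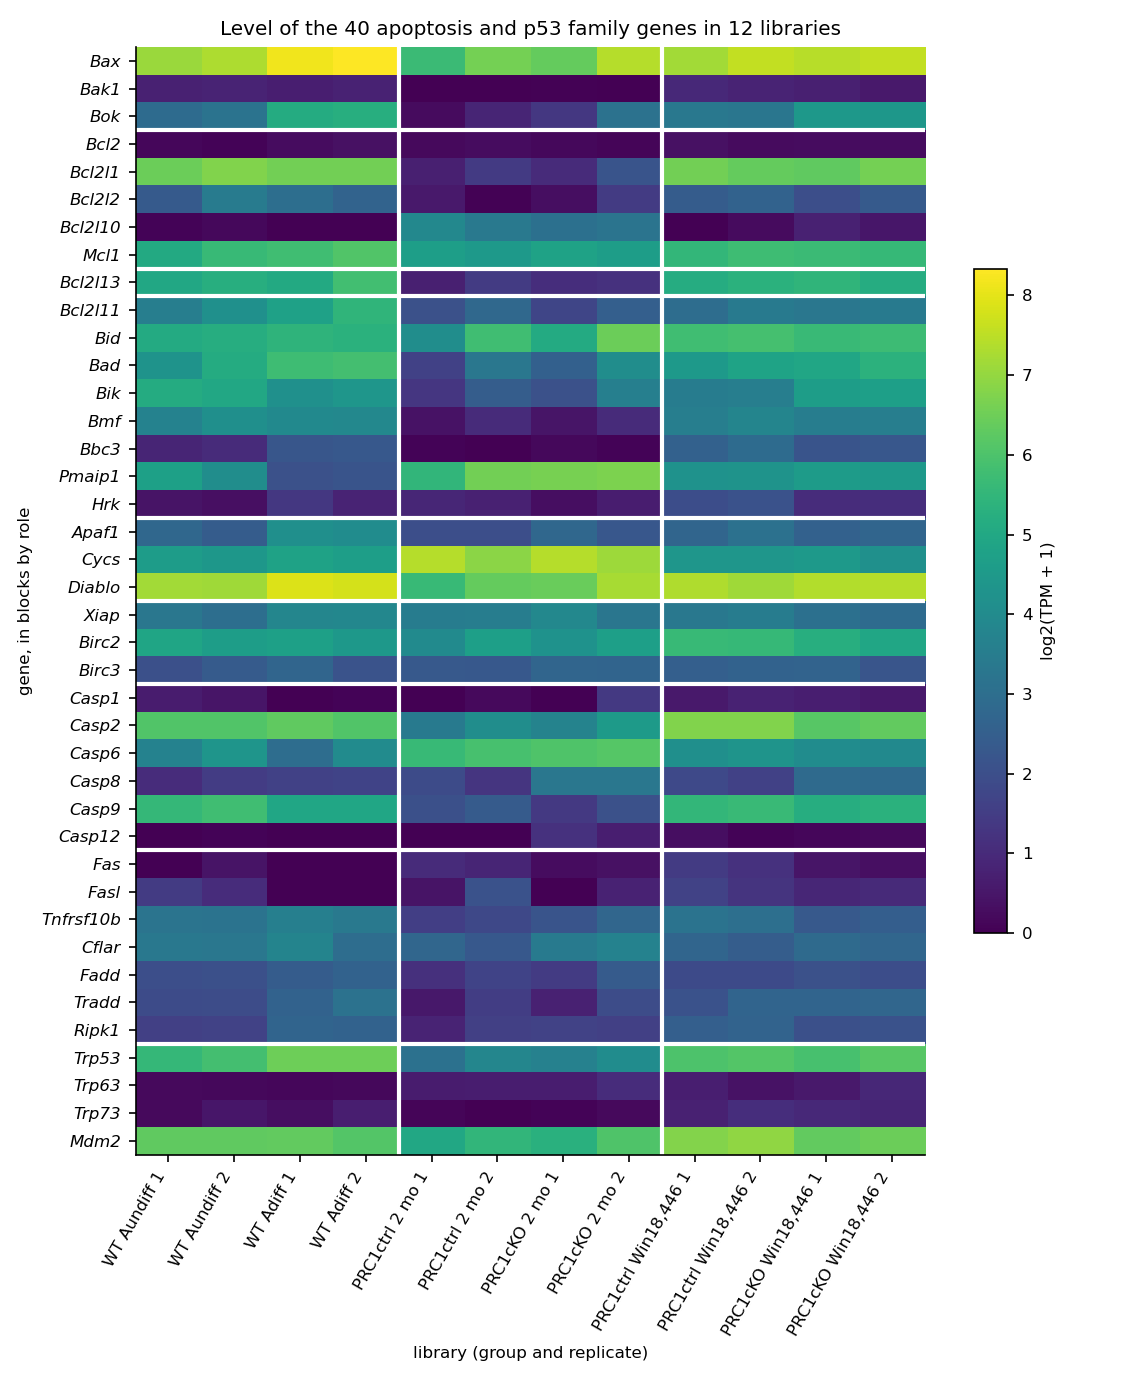
Level of the 40 genes (rows, in blocks by role) in the 12 libraries (columns, by group and replicate), as log2(TPM + 1) from dark (0) to yellow. The 4 untreated PRC1 libraries in the middle stand apart, with low *Bcl2l1*, *Bcl2l13* and *Casp9* and high *Cycs*, *Casp6* and *Bcl2l10*.

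The 4 untreated PRC1 libraries stood apart from the other 8. They were made with a Smart-Seq2 kit for low input, and the other 8 with a TruSeq stranded mRNA kit. Of the 34 genes that reached 1 TPM in 2 or more of the 12 libraries, 12 were lower in all 4 than in any of the other 8, beside 34.3% of all such genes. In the opposite direction there were 4, beside 10.8%. *Bcl2l1* lay between 0.65 and 3.48 TPM in these 4 libraries and between 78.5 and 107.5 in the others. *Bcl2l13*, a mitochondrial BCL2 relative, lay between 0.65 and 1.70 against 30.7 to 55.6. The reverse was seen for *Cycs*, which encodes cytochrome c, with 118 to 170 TPM against 17.4 to 27.1. *Bcl2l10*, an anti-apoptotic relative, had 7.47 to 13.8 TPM against at most 0.71.

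Between the untreated and the Win18446-treated PRC1ctrl mice, the log2 level of all genes differed with the GC content of their transcript: the median difference was 0.39 for genes under 40% GC and -2.01 for those from 55% to 60%. Single genes of the 40 lay on both sides of these medians: *Bcl2l1* (55.9% GC) differed by -5.35, *Bcl2l13* (49.3%) by -4.13 and *Bok* (61.0%) by -2.72, but *Bax* (63.5%) by -1.16, *Casp6* (46.2%) by 1.52, *Cycs* (40.8%) by 2.79 and *Bcl2l10* (50.7%) by 3.53. Kit and treatment changed together, so their parts cannot be told apart, and levels are compared below only within the WT, the untreated and the treated mice.

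**Figure D2:**
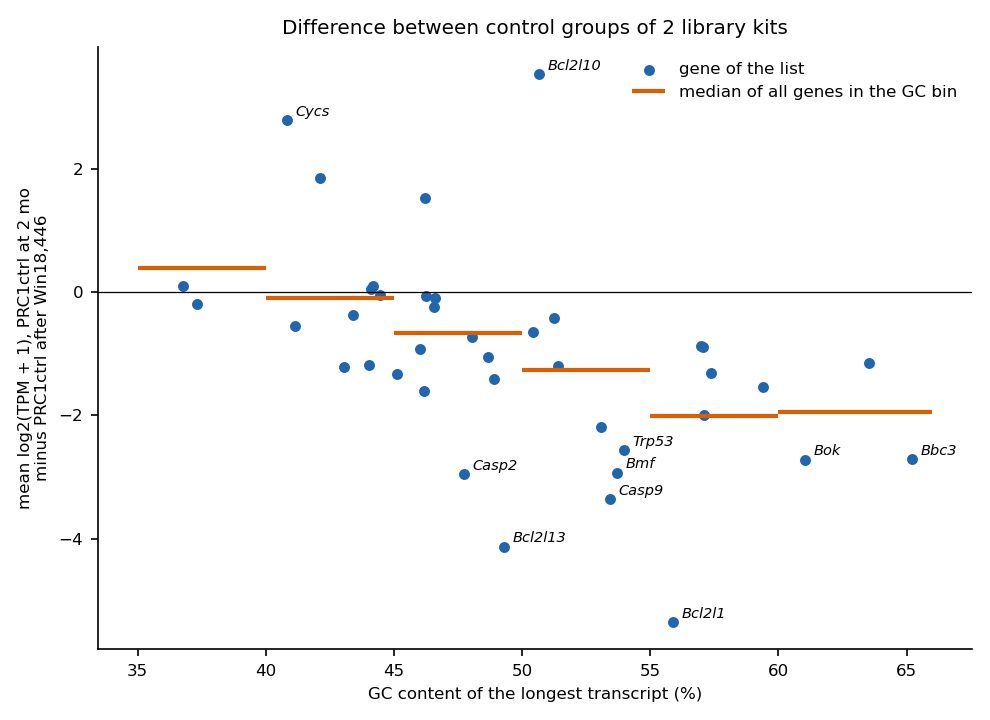
Difference of mean log2(TPM + 1) between PRC1ctrl at 2 mo (Smart-Seq2) and PRC1ctrl after Win18446 (TruSeq) for each of the 40 genes (points), against the GC content of its longest transcript in percent. Orange lines are medians over all genes per GC bin, falling from 0.39 to about -2; *Bcl2l1* lies at -5.35 and *Bcl2l10* at 3.53.

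The sorted identity and the deletion were checked on other genes. The summed TPM of 8 markers of differentiating spermatogonia was 420 and 436 in WT Aundiff and 2070 and 2160 in WT Adiff. Of the 8, *Ccnd2* was lower in Adiff (103 and 115 TPM in Aundiff, 53.6 and 80.4 in Adiff) and the others were higher. The sum of 10 Aundiff markers fell from 1190 and 1340 to 314 and 346. Spermatid markers summed to 773 and 850 TPM in WT Aundiff and 532 and 718 in WT Adiff, and their part in the WT differences was not tested. *Ring1* was at most 0.25 TPM in the 8 PRC1 libraries. *Rnf2* was not lower under PRC1cKO (56.7 and 67.5 TPM at 2 mo, 86.2 and 93.1 after Win18446) than under PRC1ctrl (28.3 and 47.6, 78.1 and 67.2). TPM of a whole gene can include reads of exons that remain, so it cannot show whether *Rnf2* was deleted. The labels are used as labels. Citing earlier work, the study describes ubiquitin on histone H2A as almost fully lost in germ cells of these PRC1cKO mice. Summed spermatid markers were 1060 and 2170 TPM in PRC1ctrl at 2 mo but 64.9 and 58.4 in PRC1cKO, and 136 and 126 against 25.5 and 23.7 after Win18446. In bulk libraries, fewer cells of a type and less RNA per cell cannot be told apart.

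To see which apoptosis genes differ between stages in WT, Adiff was compared with Aundiff. Differences were tested on log2(TPM + 1) over all genes with limma (two-sided), leaving out genes that did not reach 1 TPM in 2 of the 4 libraries. "Rose" and "fell" are used at an adjusted p under 0.05, and "called" where the log2 fold change was also beyond 1 in either direction. With 2 libraries against 2, an exact permutation test of a single gene cannot go below p = 0.33, so each adjusted p rests on the spread that limma shares between genes. Of the 40 genes, 31 were tested and 9 were not (*Bak1*, *Bcl2*, *Bcl2l10*, *Hrk*, *Casp1*, *Casp12*, *Fas*, *Trp63* and *Trp73*).

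By falling log2 fold change, the genes called higher in WT Adiff were *Bok*, *Apaf1*, *Bbc3*, *Bcl2l11*, *Bad*, *Bax* and *Ripk1*. Those called lower were *Pmaip1* and *Fasl*. Of the 31, 7 were called higher (22.6%, beside 11.1% of all 15470 genes tested) and 2 lower (6.45%, beside 9.24%). Without the fold limit 11 rose (35.5%, beside 23.4%) and 4 fell (12.9%, beside 14.7%). *Bbc3* and *Fasl* reached the TPM minimum only through the group in which they were high, so that they had to differ, and without these 2 there were 6 called higher and 1 lower of 29. The median log2 fold change of the 31 was 0.29 and that of all genes 0.15. After median-of-ratios scaling, which brought the median of all genes to -0.01, the median of the 31 was 0.13, and 4 were called higher and 2 lower. The same scaling turned the split of all calls from 54.7% to 39.8% higher.

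*Bok* and *Bax*, the effectors that were expressed, both rose. *Bok* had 6.54 and 8.08 TPM in Aundiff and 33.7 and 36.4 in Adiff. The groups lay far apart, with a log2 fold change of 2.12 ± 0.18 (SE; adjusted p = 0.00123). *Bax*, on chromosome 7 (45461697 to 45466898, minus strand, GRCm38), had 134 and 159 TPM in Aundiff and 285 and 322 in Adiff. Its log2 fold change was 1.05 ± 0.14 (adjusted p = 0.00335), and 12.2% of its exon bases lie in another gene on the same strand, Gm45808. In contrast, *Bcl2l1* overlapped between the groups, with 87.7 and 107.5 TPM in Aundiff and 92.5 and 93.8 in Adiff. *Mcl1* had 32.2 and 48.5 TPM in Aundiff and 54.1 and 65.98 in Adiff, and its log2 fold change of 0.58 ± 0.22 did not pass (adjusted p = 0.0834). Summed over their genes, the effectors came to 1.14 and 1.01 times the anti-apoptotic transcripts in Aundiff and to 2.07 and 2.17 times in Adiff.

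BH3-only genes moved in both directions. *Bbc3*, which encodes the p53 target PUMA, had 0.80 and 1.05 TPM in Aundiff and 3.74 and 3.92 in Adiff (log2 fold change 1.33 ± 0.26, adjusted p = 0.0104). *Bcl2l11*, which encodes BIM, had 10.8 and 17.1 TPM in Aundiff and 26.0 and 42.5 in Adiff (1.23 ± 0.30, adjusted p = 0.0222). *Bad*, whose product is held inactive by growth factor signalling, had 18.3 and 34.3 TPM in Aundiff and 52.1 and 57.1 in Adiff (1.09 ± 0.28, adjusted p = 0.0266). None of these 3 overlapped between the groups, although *Bad* shares 20.5% of its exon bases with *Gpr137* on the opposite strand. The largest decrease on the log2(TPM + 1) scale among the 40 genes was that of *Pmaip1* (*Fasl*, listed at 0 in Adiff, exceeded it with a pseudocount of 0.1, at -3.86 against -2.57), which encodes NOXA, the BH3-only protein that neutralises MCL1. Its 25.9 and 16.0 TPM in Aundiff stood against 3.22 and 3.47 in Adiff, a log2 fold change of -2.30 ± 0.27 (adjusted p = 0.00238). *Bik*, a BH3-only gene whose protein sits at the endoplasmic reticulum, also fell, from 33.9 and 31.1 TPM to 17.1 and 19.97 (-0.78 ± 0.17, adjusted p = 0.0141). *Bid* and *Bmf* had log2 fold changes of 0.22 and 0.00 and did not pass.

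Downstream of the mitochondria, *Apaf1*, the scaffold of the apoptosome on chromosome 10 (90989311 to 91082770, minus strand, GRCm38), had 5.93 and 4.33 TPM in Aundiff and 17.0 and 15.5 in Adiff. It rose by 1.5 ± 0.22 on the log2 scale (adjusted p = 0.00461), with both Adiff libraries above both Aundiff libraries. *Diablo*, whose product SMAC relieves caspases of their inhibitors, rose from 143 and 141 TPM to 237 and 221 (0.68 ± 0.12, adjusted p = 0.00681). It overlaps other annotated genes in 19.3% of its exon bases on its own strand. *Xiap*, the inhibitor that binds caspases directly, rose as well, from 8.94 and 7.02 TPM to 13.1 and 13.7 (0.69 ± 0.20, adjusted p = 0.0405). *Casp9*, the initiator caspase of the apoptosome, went the opposite way to its scaffold and fell from 46.3 and 54.0 TPM to 29.3 and 29.6 (-0.75 ± 0.15, adjusted p = 0.0121). *Cycs*, *Birc2*, *Birc3*, *Casp2*, *Casp6* and *Casp8* did not pass, with log2 fold changes between -0.50 and 0.37.

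Of the death receptor genes, *Ripk1*, the kinase that joins receptor complexes, had 1.98 and 2.16 TPM in Aundiff and 5.41 and 5.22 in Adiff (1.04 ± 0.24, adjusted p = 0.0175). *Tradd*, the adaptor of the TNF receptor, rose from 2.77 and 2.85 TPM to 5.20 and 7.80 (0.96 ± 0.27, adjusted p = 0.0329). *Fasl*, the ligand of FAS, had 1.71 and 1.06 TPM in Aundiff and was listed at 0 in both Adiff libraries, so no fold is given. It met the TPM minimum through Aundiff alone, and its adjusted p of 0.0211 rests on that. *Trp53* itself had 45.9 and 56.5 TPM in Aundiff and 88.4 and 90.1 in Adiff. It rose by 0.80 ± 0.15 on the log2 scale (adjusted p = 0.00965), whereas *Mdm2*, the ubiquitin ligase that degrades p53, overlapped between the groups (78.0 and 78.6 TPM against 79.5 and 68.1, -0.09 ± 0.14, adjusted p = 0.644). The other genes tested, *Bcl2l2* (-0.08), *Bcl2l13* (0.35), *Tnfrsf10b* (0.29), *Cflar* (0.05) and *Fadd* (0.50), did not pass at these log2 fold changes.

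*Bok*, *Apaf1* and *Pmaip1* were called without any 1 of the 4 libraries. Without replicate 1 of WT Aundiff these 3 remained as the only calls; *Bax* then had a log2 fold change of 0.93 (adjusted p = 0.0241), and *Bad* (adjusted p = 0.0746), *Bbc3* (0.061), *Bcl2l11* (0.0947), *Ripk1* (0.092), *Bik* (0.0875), *Tradd* (0.123), *Trp53* (0.0641) and *Xiap* (0.0803) did not pass. Without replicate 2 of WT Aundiff, *Ripk1* (adjusted p = 0.0715), *Bik* (0.0534), *Casp9* (0.0815), *Diablo* (0.0514), *Tradd* (0.109) and *Xiap* (0.206) did not pass, and *Fasl* had no test without either Aundiff library. Without replicate 1 of WT Adiff, *Bad* (0.0645) and *Xiap* (0.0531) did not pass. Without replicate 2 of WT Adiff, *Bad* (0.0902), *Tradd* (0.121) and *Xiap* (0.0775) did not pass, and *Bax* and *Bcl2l11* were no longer called, at log2 fold changes of 0.96 and 0.89, while *Casp6* was. After correction for transcript GC content, *Bax* (63.5% GC) rose by 0.46 (adjusted p = 0.0236) and *Bbc3* (65.2% GC) did not pass (0.66, adjusted p = 0.101). In a fit over all 12 libraries *Bax* (adjusted p = 0.0749), *Bad* (0.248), *Bcl2l11* (0.0512) and *Fasl* (0.0971) lost their calls, and *Trp53* (0.0605), *Diablo* (0.136), *Casp9* (0.0674), *Bik* (0.295), *Tradd* (0.154) and *Xiap* (0.0682) did not pass.

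**Figure D3:**
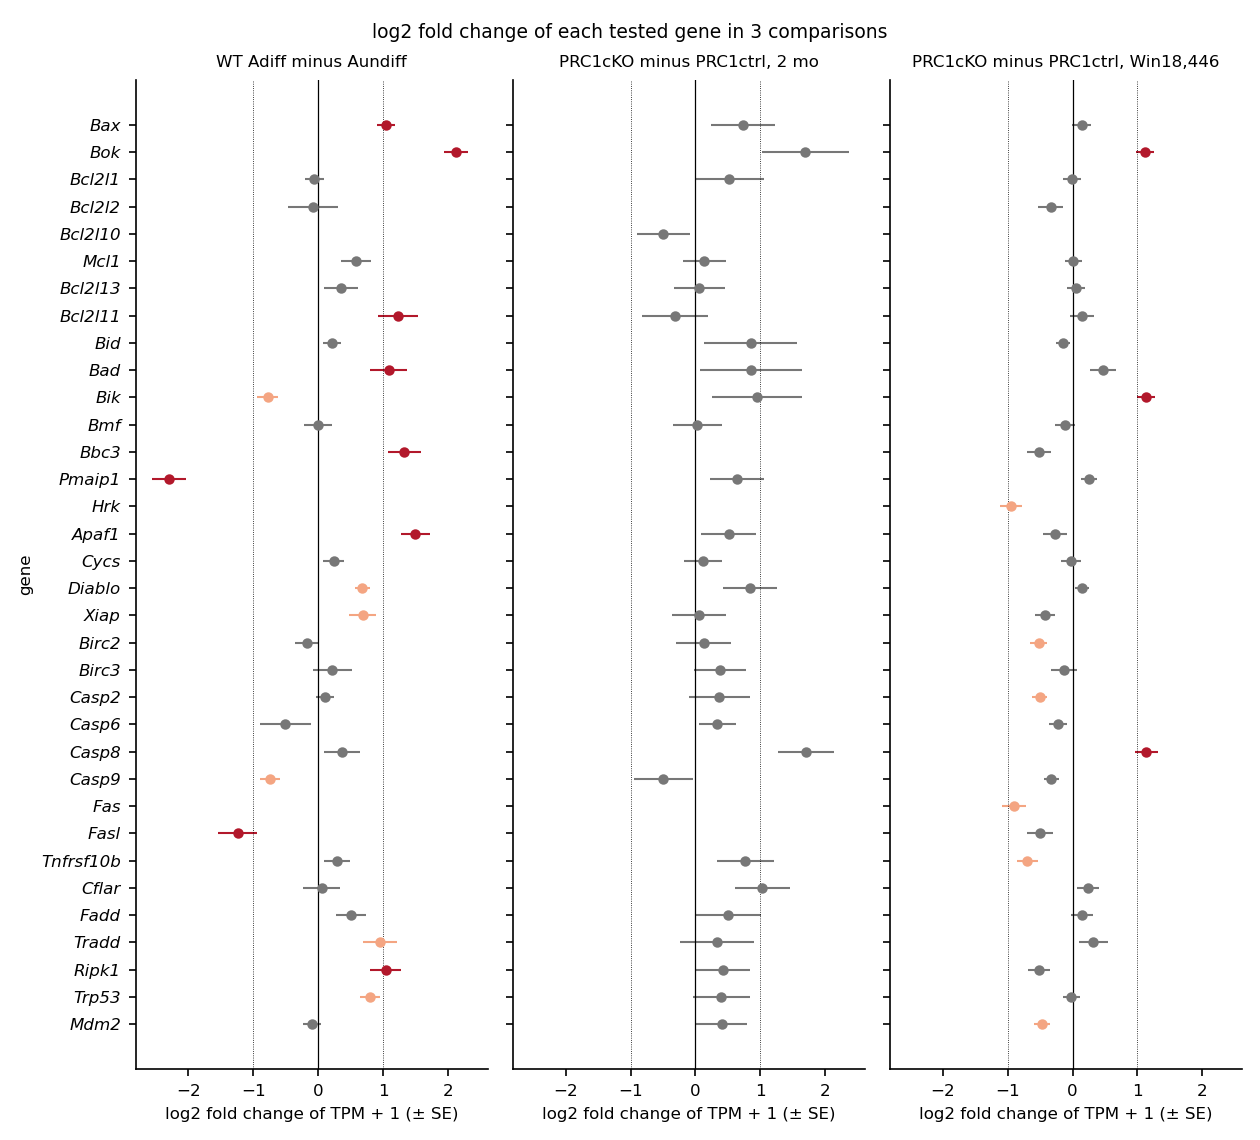
log2 fold change of TPM + 1 with its standard error for the 34 genes tested in at least 1 of 3 comparisons (rows; an empty row was not tested). Dark red points were called, light red points passed an adjusted p of 0.05 without the fold limit, and grey points did not pass; dotted lines mark 1 in either direction. WT shows 9 dark red points, the untreated mice none and the treated mice 3.

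The comparison of PRC1cKO with PRC1ctrl after Win18446 asks how Aundiff of the 2 labels differ while differentiation is blocked. *Bok*, *Bik* and *Casp8*, an effector, a BH3-only gene and the initiator caspase of the death receptors, were called higher under PRC1cKO, and no gene of the 40 was called lower. That is 3 of 33 genes tested (9.09%), beside 1.27% of all 16521 genes called higher, and 0 called lower beside 10.9%. The study had already named *Bok* and *Casp8* as increased in PRC1cKO, so the share called higher is not independent of the choice of genes. Without the fold limit the same 3 rose (beside 5.87% of all genes) and 6 fell (18.2%, beside 26.7%), by limma, while 15 of the 33 (45.5%) had an unadjusted p under 0.05, beside 44.3% of all genes. The median log2 fold change was -0.12 for the 33 genes and -0.19 for all genes. *Fas* and *Fasl* met the TPM minimum only through PRC1ctrl, and without them 3 rose, 5 fell and the median was -0.02. The 7 genes without a test were *Bak1*, *Bcl2*, *Bcl2l10*, *Casp1*, *Casp12*, *Trp63* and *Trp73*.

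The promoters of *Bok* and *Casp8* are shown because both genes were called higher in PRC1cKO, and PRC1 is known to bind promoters rich in CpG. RefSeq promoters (GRCm38.p6) matched 34 of the 40 genes. No RefSeq promoter was matched for *Bik*. Each sequence is the 250 bases before the annotated start, 5′ to 3′ on the plus strand, with every CpG in capitals. That of *Bok* is chr1:93685325-93685574, upstream of the gene, with 12 CpG.
Bok: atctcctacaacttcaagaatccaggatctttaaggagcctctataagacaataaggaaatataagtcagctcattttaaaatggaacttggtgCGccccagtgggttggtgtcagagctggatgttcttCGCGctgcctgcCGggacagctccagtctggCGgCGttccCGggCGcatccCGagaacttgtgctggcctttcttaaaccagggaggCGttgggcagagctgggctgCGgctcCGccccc
That of *Casp8* is chr1:58802252-58802501, which lies in an intron of the annotated gene ahead of an internal start, with 5 CpG.
Casp8: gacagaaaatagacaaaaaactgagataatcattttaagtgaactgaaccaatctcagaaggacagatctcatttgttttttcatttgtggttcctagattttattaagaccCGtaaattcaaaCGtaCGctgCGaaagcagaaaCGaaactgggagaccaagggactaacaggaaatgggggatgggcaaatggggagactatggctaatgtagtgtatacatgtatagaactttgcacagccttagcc
The median over the 32851 promoters of the same length was 6 CpG, with quartiles at 2 and 16, and both counts lay between these quartiles. The counts describe these 250 bases only, and for *Casp8* they leave out the start of the annotated gene. Whether PRC1 binds either gene was not tested here. The study proposes that expression of *Bok*, *Bax* and *Casp8* increased through loss of PRC1 activity at these loci.

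*Bok* (chromosome 1, 93685660 to 93695764, plus strand, GRCm38) had 9.15 and 8.58 TPM in treated PRC1ctrl and 20.6 and 20.1 in treated PRC1cKO. The libraries of each label were close together and the labels well apart, with a log2 fold change of 1.11 ± 0.14 (adjusted p = 0.00291). *Bik* (chromosome 15, 83526862 to 83544634, plus strand) had 10.4 and 10.9 TPM against 23.7 and 25.2 (1.13 ± 0.13, adjusted p = 0.00276). *Casp8* (chromosome 1, 58795374 to 58847503, plus strand) had 2.58 and 2.05 TPM against 6.36 and 6.18 (1.14 ± 0.18, adjusted p = 0.00511). All 3 were called without any 1 of the 4 libraries, after median-of-ratios scaling (1.34, 1.36 and 1.33) and after GC correction (1.15, 1.21 and 1.41). In a fit over all 12 libraries, *Bok* (adjusted p = 0.19) and *Bik* (0.186) did not pass. *Bax*, the other expressed effector, overlapped between the labels, with 143 and 187 TPM against 173 and 189 (0.14 ± 0.15, adjusted p = 0.511).

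**Figure D4:**
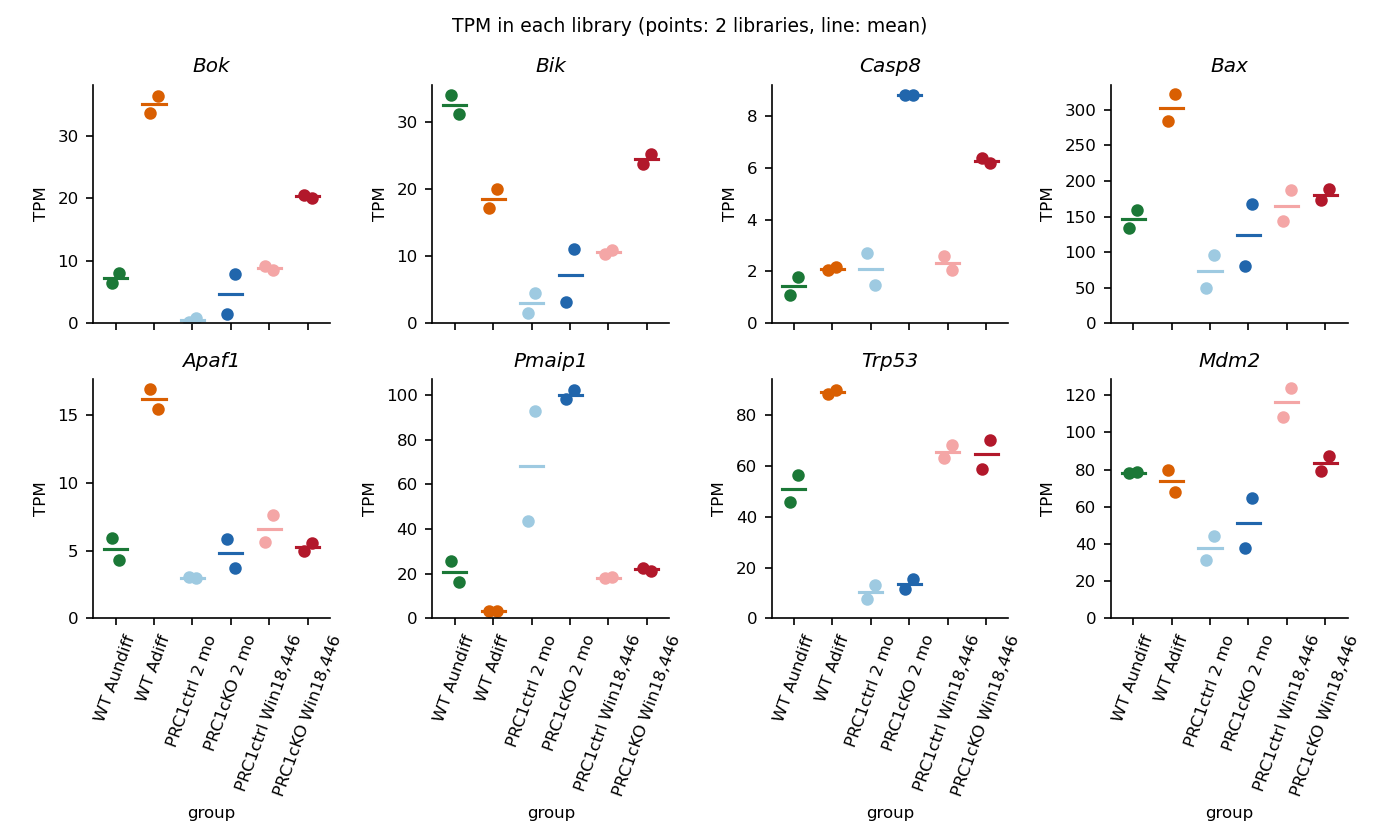
TPM of 8 genes in each library (points, 2 per group) with the group mean (line), on axes that start at 0. *Bok*, *Bik* and *Casp8* lie higher under PRC1cKO than under PRC1ctrl after Win18446, and *Bik* lies lower in WT Adiff than in WT Aundiff.

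The 6 genes that fell came from 5 of the roles, and none by more than 1 on the log2(TPM + 1) scale. With a pseudocount of 0.1 in place of 1, *Fas* (-1.90) and *Hrk* (-1.39) were called lower. *Hrk*, a BH3-only gene known mainly from neurons, had 2.94 and 3.24 TPM under PRC1ctrl and 1.10 and 1.14 under PRC1cKO (-0.95 ± 0.17, adjusted p = 0.00874). *Fas*, the receptor itself, had 1.70 and 1.3 TPM against 0.40 and 0.26 (-0.91 ± 0.18, adjusted p = 0.0119). *Tnfrsf10b*, the mouse receptor of the ligand TRAIL, had 7.99 and 7.24 TPM against 4.03 and 4.59 (-0.70 ± 0.16, adjusted p = 0.0191). The labels did not overlap for any of them, although *Hrk* and *Fas* were close to the TPM minimum. *Fas* met that minimum through PRC1ctrl alone, so that it had to differ, and its adjusted p rests on that. It had no test without either PRC1ctrl library. *Birc2*, an inhibitor of apoptosis protein that acts in TNF signalling, had 48.3 and 46.9 TPM against 36.2 and 29.6 (-0.53 ± 0.14, adjusted p = 0.0277). *Casp2*, a caspase activated by the PIDD1 platform, had 107.8 and 106.5 TPM against 70.6 and 80.0 (-0.51 ± 0.12, adjusted p = 0.0178). *Mdm2* had 108 and 124 TPM against 79.5 and 87.3 (-0.47 ± 0.12, adjusted p = 0.027), while *Trp53* overlapped, with 63.1 and 68.2 TPM against 59.0 and 70.5.

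In the fit over all 12 libraries, *Fas* (adjusted p = 0.021) and *Hrk* (0.0287) of the 6 passed, and *Tnfrsf10b* (0.0971), *Birc2* (0.311), *Casp2* (0.36) and *Mdm2* (0.331) did not. There too, *Fas* reached 1 TPM only in libraries labelled PRC1ctrl. After median-of-ratios scaling, which moved the median of all genes to 0.03, *Hrk* and *Fas* still fell, but *Birc2* (-0.29, adjusted p = 0.171), *Casp2* (-0.26, 0.0839), *Mdm2* (-0.23, 0.134) and *Tnfrsf10b* (-0.49, 0.0512) did not pass. The share of higher among all calls then changed from 10.4% to 23.3%. After the same scaling *Bad* (0.70, adjusted p = 0.0291 by limma), *Pmaip1* (0.49, 0.0297) and *Diablo* (0.39, 0.0421) rose, which without it did not pass. With *Bok*, *Bik* and *Casp8* this made 6 genes that rose and 2 that fell, and the median log2 fold change became 0.10. Without replicate 1 of treated PRC1cKO none of the 6 passed (adjusted p from 0.0502 for *Birc2* to 0.143 for *Mdm2*). Without replicate 2 of treated PRC1cKO only *Casp2* did, the others having adjusted p from 0.0507 for *Hrk* to 0.136 for *Birc2*, and without replicate 2 of treated PRC1ctrl *Mdm2* did not pass (0.107). The remaining genes, *Bcl2l1* (-0.01), *Mcl1* (0.01), *Bid* (-0.15), *Bmf* (-0.12), *Bbc3* (-0.52), *Pmaip1* (0.25), *Apaf1* (-0.27), *Cycs* (-0.02), *Diablo* (0.14), *Xiap* (-0.42), *Casp6* (-0.23), *Casp9* (-0.33), *Fasl* (-0.50), *Fadd* (0.15), *Ripk1* (-0.52), *Bcl2l2* (-0.34), *Bcl2l13* (0.055), *Bcl2l11* (0.15), *Bad* (0.47), *Birc3* (-0.13), *Cflar* (0.23) and *Tradd* (0.32), did not pass at these log2 fold changes.

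Summed markers of cell types also differed. After Win18446 the 7 Leydig cell markers were 428 and 85.4 TPM under PRC1ctrl and 84.1 and 23.8 under PRC1cKO, far apart within each label. The 9 Sertoli cell markers overlapped, with 112 and 73.5 TPM against 144 and 89.6. The 8 markers of differentiating spermatogonia were 334 and 333 TPM against 478 and 533, and the 10 Aundiff markers 1240 and 1300 against 964 and 1090. Of the 8, *Stra8* lay lower under PRC1cKO, *Ccnd2* overlapped and the others lay higher. Of the 10, *Gfra1* lay higher, *Id4*, *Ret* and *Cdh1* overlapped and the others lay lower. The part of these shifts in the differences of the 40 genes was not tested.

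Set beside WT, *Bok* and *Bik* were the genes past the adjusted p in both comparisons, which is 2 of the 15 in WT and 2 of the 9 after Win18446. Of the 31 genes tested in both, these are 6.45%, beside 11.9% of all genes tested in both. *Bok* rose in both. *Bik* fell in WT Adiff and rose under PRC1cKO, and whether these changes differ was not tested. *Apaf1*, *Bax* and *Trp53*, which rose in WT Adiff, had log2 fold changes of -0.27, 0.14 and -0.02 under PRC1cKO, and none of them passed there.

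In untreated mice at 2 mo, the same labels were compared in the Smart-Seq2 libraries. Of 29 genes tested, limma called 0, beside 2.16% of all 13953 genes, and 2 had an unadjusted p under 0.05, beside 14.2%. The untested 11 were *Bak1*, *Bcl2*, *Bcl2l2*, *Bbc3*, *Hrk*, *Casp1*, *Casp12*, *Fas*, *Fasl*, *Trp63* and *Trp73*. *Casp8* had 2.71 and 1.46 TPM under PRC1ctrl and 8.81 and 8.82 under PRC1cKO. The labels were well apart and the log2 fold change was 1.70 ± 0.43 (unadjusted p = 0.00894, adjusted p = 0.139 by limma). *Bok* had 0.19 and 0.81 TPM against 1.56 and 7.83, and so did not overlap, but it differed widely between replicates and met the TPM minimum through PRC1cKO alone (1.70 ± 0.67, adjusted p = 0.345). *Cflar*, which encodes the caspase 8 inhibitor c-FLIP and lies next to *Casp8* on chromosome 1, had 5.68 and 3.91 TPM against 9.59 and 11.99 (1.03 ± 0.42, adjusted p = 0.354).

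Replicates of the untreated mice were less alike than those of the other comparisons, with correlations of log2 values across genes of 0.928 and 0.942 against 0.956 to 0.975. In 20 of the 29 genes replicate 2 was higher than replicate 1 under both labels, beside 53.1% of all genes. *Bax* had 50.2 and 96.5 TPM under PRC1ctrl and 80.7 and 168 under PRC1cKO, and *Bid*, which caspase 8 cleaves, had 15.9 and 54.0 against 33.6 and 86.7. *Pmaip1* had 43.5 and 93.0 TPM against 98.2 and 102. *Trp53* had 7.57 and 13.1 TPM against 11.7 and 15.6 (0.40 ± 0.44, adjusted p = 0.718), and *Mdm2* 31.3 and 44.2 against 37.9 and 64.6 (0.41 ± 0.40, adjusted p = 0.687). Both PRC1cKO libraries lay above both PRC1ctrl libraries in 9 of the 29 genes, beside 27.5% of all genes, and below them in 1, *Bcl2l10*, beside 17.3%. The other 20 genes tested had log2 fold changes from -0.50 for *Casp9* to 0.95 for *Bik*. The median was 0.41 for the 29 genes and 0.23 for all genes. *Bok*, *Bcl2l1*, *Bcl2l13* and *Ripk1* met the TPM minimum through PRC1cKO alone, and without these 4 the median of the 25 left was 0.40. Of these 4, *Bok* was among the 9 genes above and among the 2 with an unadjusted p under 0.05 by limma. Summed spermatid markers, 1060 and 2170 TPM against 64.9 and 58.4, and Leydig markers, 1.39 and 1.35 TPM against 22.7 and 63.7, moved with the label here. The Aundiff markers summed to 1040 and 1500 TPM against 476 and 590, but not all of them went this way. *Sall4*, *Nanos3*, *Upp1*, *Lin28a* and *Id4* lay lower under PRC1cKO. *Gfra1*, *Zbtb16*, *Etv5* and *Ret* overlapped between the labels, and *Cdh1* lay higher. The markers of differentiating spermatogonia summed to 297 and 399 TPM against 677 and 875. The part of these shifts was not tested. *Casp12*, untested, was listed at 0 in both PRC1ctrl libraries and had 1.3 and 0.64 TPM under PRC1cKO.

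An interaction term of label with treatment tested whether the PRC1cKO difference itself differed between untreated and treated mice. Of 34 genes tested, limma called 0, beside 7.74% of all 18354 genes, and 2 had an unadjusted p under 0.05, beside 24.7%. These were *Bcl2l10* (1.02 ± 0.35, adjusted p = 0.133) and *Tnfrsf10b*, the TRAIL receptor, whose log2 fold change was 0.77 ± 0.44 at 2 mo and -0.70 ± 0.16 after Win18446 (difference -1.47 ± 0.37, adjusted p = 0.0619). For *Casp8* the difference was -0.56 ± 0.36 (adjusted p = 0.385), for *Bok* -0.58 ± 0.78 (0.675) and for *Bik* 0.18 ± 0.79 (0.904). The interval of *Bok* and *Bik* is wide, and these p-values do not show that the labels act alike with and without treatment. Because kit and treatment changed together, a difference in this term cannot be told apart from one between kits. It also moved with scaling: the median of all genes was -0.41, and 0.14 after median-of-ratios scaling, which changed the share of higher calls from 35.6% to 77.5%.

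The p53 response element consists of repeats of a decamer to which the protein binds. The decamer (searched by its consensus on GRCm38.p6, from 250 bases before to 50 after a RefSeq start; it is its own reverse complement, so both strands are covered) was found in 8.36% of all promoters and in 6 of the 47 promoters of the 40 genes. A full element, with at most 13 bases between its decamers, was found in 0.0731% of all promoters and in 0 of the 47. The matches in *Bax*, *Trp53* and *Mdm2* are shown for their place in the p53 pathway, with the decamer in capitals and 10 bases on either side. They lie on chromosomes 7 (45467080 to 45467109, minus strand), 11 (69580274 to 69580303, plus strand) and 10 (117710925 to 117710954, minus strand), each upstream of the annotated gene.
Bax: agcatatcccAGGCAAGCTTtgaacttgcg
Trp53: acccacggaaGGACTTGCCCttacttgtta
Mdm2: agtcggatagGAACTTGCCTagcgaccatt
Further matches lay in *Fasl*, *Bmf* and *Birc2*. Of these 6 genes, *Bax* and *Trp53* rose in WT Adiff, beside 23.4% of all genes. *Fasl*, which met the TPM minimum through Aundiff alone, fell there, beside 14.7%. *Birc2* and *Mdm2* fell under PRC1cKO after Win18446, beside 26.7%, but did not pass after median-of-ratios scaling. Whether a match relates to these changes was not tested. A match describes the letters of this window and not binding.

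Other genes of the same pathways were counted from 5 lists, chosen with earlier results of these data known. The counts include genes that met the TPM minimum through a single group and so had to differ. In WT Adiff, 6 of 26 tested p53 targets rose (23.1%, beside 23.4% of all genes) and 4 fell (15.4%, beside 14.7%), shares near those of all genes. *Phlda3*, a p53 target that restrains AKT, rose from 6.43 and 6.70 TPM to 37.6 and 47.9 (2.52 ± 0.19, adjusted p = 0.000951), and *Pidd1*, which builds the platform for caspase 2, from 5.10 and 5.25 to 14.4 and 14.6 (1.32 ± 0.19, adjusted p = 0.00441). *Ddit4*, a stress-induced inhibitor of mTORC1, fell from 102 and 128 TPM to 5.87 and 5.47 (-4.11 ± 0.18, adjusted p = 0.000221), and *Sesn1*, also an inhibitor of mTORC1 signalling, fell by 1.75 ± 0.20 (adjusted p = 0.00213). Of 18 p53 regulators, 7 rose (38.9%) and 2 fell (11.1%). The ubiquitin ligase gene *Cop1* (1.24), the checkpoint kinase gene *Chek1* (1.22) and the deubiquitinase gene *Usp7* (1.08) were called. Among 12 tested genes of the other caspases, inhibitors and execution factors, 4 rose (33.3%) and 2 fell (16.7%), with *Htra2* (1.3), *Birc5* (1.26) and *Endog* (1.14) called higher. Of 9 other BCL2 family and outer membrane genes, 2 rose (22.2%; *Bnip3*, called at 1.01, and *Vdac2*) and 1 fell (*Bnip1*). Of 15 other death receptor genes, 2 rose (13.3%; *Ripk3* and *Rnf31*) and 1 fell, the TNF receptor gene *Tnfrsf1a* (-1.27). List genes that were not called are named only after their values were seen, where a count is small. The median log2 fold changes of these lists were 0.18 (p53 targets), 0.64 (p53 regulators), 0.41 (caspases and execution), -0.14 (BCL2 family) and 0.46 (death receptors), beside 0.15 for all genes.

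After Win18446 the p53 regulators were mostly lower under PRC1cKO: by limma 10 of 18 fell (55.6%, beside 26.7% of all genes) and 0 rose (beside 5.87%), 12 had an unadjusted p under 0.05 (66.7%, beside 44.3%), and the median was -0.45 beside -0.19 for all genes. After median-of-ratios scaling 6 fell and 0 rose, with medians of -0.21 and 0.03. *Mdm4*, the partner of MDM2 in restraining p53, had 99.6 and 109 TPM under PRC1ctrl and 24.4 and 31.4 under PRC1cKO (-1.88 ± 0.15, adjusted p = 0.00176). *Atm*, the kinase that signals DNA breaks to p53, had 48.7 and 61.3 TPM against 16.7 and 18.4 (-1.59 ± 0.15, adjusted p = 0.00202). *Chek2* (-1.04) and *Prkdc* (-1.03), further kinases of the DNA damage response, were also called. These 4 did not overlap between the labels. Of 27 p53 targets, 2 rose (7.41%; *Phlda3* and *Perp*) and 7 fell (25.9%), near the shares of all genes, and 5 and 4 did so after median-of-ratios scaling. *Perp*, with 0.65 and 0.73 TPM against 2.37 and 2.21, met the TPM minimum through PRC1cKO alone, so that it had to differ. *Phlda3* rose from 9.88 and 9.60 TPM to 22.7 and 24.4 (1.19 ± 0.13, adjusted p = 0.00263), as in WT Adiff, whereas *Pidd1* fell from 14.3 and 17.7 to 5.39 and 7.02 (-1.24 ± 0.19, adjusted p = 0.00465), opposite to WT Adiff. *Polk*, a polymerase that copies past lesions, was called lower (-1.12). Of 12 other caspase and execution genes, 6 fell (50.0%) and 0 rose by limma (7 had an unadjusted p under 0.05, 58.3%), led by the giant inhibitor of apoptosis protein gene *Birc6*, with 99.2 and 130 TPM against 29.3 and 40.9 (-1.69 ± 0.20, adjusted p = 0.00321), and *Acin1* (-1.15). After median-of-ratios scaling 5 of these 12 fell and 2 rose. Of 15 other death receptor genes, 5 fell (33.3%), with *Tnfrsf25* called (-1.02), and 1 rose (*Ripk3*). *Tnfrsf25*, with 2.47 and 2.48 TPM against 0.69 and 0.75, met the TPM minimum through PRC1ctrl alone, and its call rests on that. None of 10 other BCL2 family genes passed by limma, and 0 of them had an unadjusted p under 0.05. At 2 mo none of the 70 tested genes of the 5 lists passed by limma, and 3 had an unadjusted p under 0.05, beside 14.2% of all genes (*Chek1*, *Bcl2l14* and *Tnfrsf12a*). *Bcl2l14* met the TPM minimum through PRC1ctrl alone and *Tnfrsf12a* through PRC1cKO alone.

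**Figure D5:**
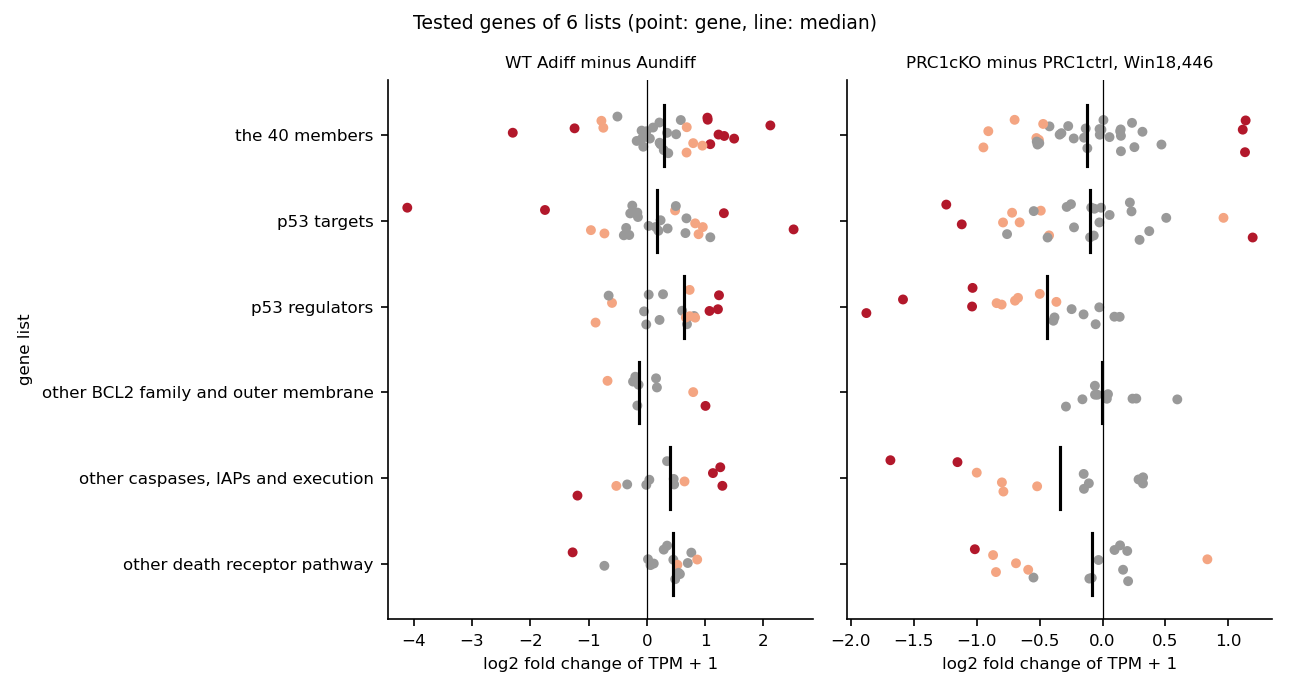
log2 fold change of TPM + 1 for the tested genes of the 40 and of 5 further lists (points) with the median of each list (line), in WT (left) and after Win18446 (right). Dark red was called, light red passed an adjusted p of 0.05, grey did not pass; the p53 regulators have a median of 0.64 in WT and -0.45 after Win18446.

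Among the genes named from these lists, several calls were lost without a single library. In WT, *Tnfrsf1a* (adjusted p = 0.0569 without replicate 1 of Aundiff, 0.0717 without replicate 2, and log2 fold change -0.97 without replicate 2 of Adiff) and *Chek1* (0.0561 without replicate 2 of Aundiff, 0.88 on the log2 scale without replicate 1 of Adiff) lost theirs. *Bnip3* had log2 fold changes of 0.94 and 0.97 without these same 2 libraries, *Usp7* 0.97 without replicate 1 of Adiff and *Endog* 0.89 without replicate 2 of Adiff. After Win18446, replicate 1 of PRC1cKO decided *Acin1* (-0.998), *Chek2* (-0.88), *Tnfrsf25* (adjusted p = 0.0518) and *Prkdc* (0.0547), replicate 2 of PRC1cKO decided *Polk* (-0.91) and replicate 2 of PRC1ctrl *Prkdc* (-0.87).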

How the data were processed

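RNA-seq of 12 libraries in 6 groups of 2 was analysed. The TPM values of 55385 genes were deposited by the authors, who had run RSEM 1.3.3 on GRCm38; Trim Galore 0.6.6, HISAT2 2.2.1, SAMtools 1.9, HTSeq 1.6.0 and DESeq2 1.28.1 stand in the submitters' processing notes and concern counts not used here. Coordinates are those of the table on GRCm38; 38 of the 40 genes have the same ones in gencode vM21. TPM keeps no read depth, so no counting interval was given, and whether RSEM used strand is not given in the sources used here.

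TPM was tested as log2(TPM + 1) with limma 3.58.1 in R 4.3.3 (trend and robust moderation, two-sided, Benjamini-Hochberg over all genes tested), with a filter of TPM of at least 1 in at least 2 libraries of the fit. Fold changes on this scale understate changes of low genes. Each comparison used its own groups, and the interaction the 8 PRC1 libraries. The study's methods call its replicates independent, each of pooled cells. A call needed both an adjusted p under 0.05 and a log2 fold change beyond 1 in either direction, which are the study's own limits. The test was tried on simulated data.

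The 40 genes and the lists of other pathway genes and markers were chosen with earlier results of these data known. Full values are given for genes past the adjusted p in a comparison, for *Casp8*, *Bok*, *Bax*, *Trp53* and *Mdm2*, and for the 3 largest changes per comparison; other lists are given by counts and at most 4 called genes. Values of one gene that these counts include are not reported here. Alternatives were each library left out, a fit over all 12 libraries, median-of-ratios scaling, a replicate block, a pseudocount of 0.1, a minimum mean TPM of 5, no filter, and limma without its trend and robust options. A correction for transcript GC content (lowess, span 0.3), alone and with the block, was added after the data were seen. Python 3.11.15 served for tables (pandas 2.3.3, numpy 2.4.6) and figures (matplotlib 3.10.9).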

Additional observations from a re-analysis of the deposited data

Results flagged for a closer look

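For 3 of the 83 pathway list genes tested, the difference between PRC1cKO and PRC1ctrl differed between untreated mice and mice given Win18446 by the interaction term in limma. All 3 were called, beside 7.74% of all 18354 genes tested. For *Mdm4* the log2 fold change was -0.20 at 2 mo and -1.88 after Win18446, a difference of -1.67 ± 0.30 (adjusted p = 0.0229). For *Atm* it was -0.03 and -1.59, a difference of -1.55 ± 0.31 (adjusted p = 0.0331), and for *Birc6* 0.16 and -1.69, a difference of -1.84 ± 0.41 (adjusted p = 0.0431). Both treated PRC1cKO libraries lay below both treated PRC1ctrl libraries for each gene. After median-of-ratios scaling the differences were -0.96 (adjusted p = 0.233), -0.84 (0.359) and -1.13 (0.302) and did not pass. After GC correction they were -1.30 (0.0455), -1.16 (0.0797) and -1.50 (0.0976). With a single library left out, the largest adjusted p was 0.161 for *Mdm4*, 0.208 for *Atm* and 0.226 for *Birc6*, each without replicate 2 of treated PRC1ctrl. Of the 8 such fits, *Mdm4* lost its call in 5, *Birc6* in 7 and *Atm* in all 8. The library kit changed with the treatment, and the parts of the 2 cannot be told apart.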

How the results depend on the processing

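Of the 9 genes called in WT, 5 were called in a fit over all 12 libraries, and 3 to 9 with a single library left out. After Win18446 the 3 calls became 5 with a pseudocount of 0.1 (with *Fas* and *Hrk* lower), 2 at a mean TPM of at least 5 (*Casp8* was then not tested) and 1 in the fit over all 12 libraries (*Casp8*), and stayed at 3 whichever library was left out. At 2 mo the count of 0 became 3 with the replicate block (*Casp8*, *Bok* and *Cflar*, while *Bax*, *Bid* and *Diablo* passed without the fold limit), 1 in the fit over all 12 libraries and 1 with the block and GC correction together (*Casp8* both times). For the interaction it became 1 in the fit over all 12 libraries (*Tnfrsf10b*) and 0 to 1 with a library left out. Calls over all genes rose in these settings too. At 2 mo, 31 higher and 270 lower of 13953 genes became 1074 and 1098 with the block. With the block and GC correction they became 431 and 1183. In the fit over all 12 libraries they were 588 and 1036 of 19210 genes, and 609 and 1431 for the interaction. With a library left out, the log2 fold change of *Mdm2* in WT lay between -0.200 and 0.021 and turned positive without replicate 2 of Adiff. After Win18446 that of *Bax* lay between -0.051 and 0.331, negative without replicate 1 of PRC1ctrl. That of *Trp53* lay between -0.151 and 0.103, positive without replicate 2 of PRC1ctrl or replicate 1 of PRC1cKO, and was 0.217 after median-of-ratios scaling and 0.104 with GC correction, with or without the block. None of the 3 had passed. The causes were not tested. Of the other comparisons of single genes with an alternative, 338 kept direction and side of the threshold, 76 lost and 6 gained it. A group left with 1 library is assumed to vary like the other.

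Libraries of different groups share only a replicate number. With the number as a block, 9 genes were called in WT and 3 after Win18446. Deviations of same-numbered libraries from their group means correlated by 0.158 in WT, 0.381 at 2 mo and 0.122 after Win18446. TPM holds no read depth, so small differences of genes near 1 TPM could not be judged against counting error.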
